A study of Nothobranchius furzeri with 18 samples.

Results

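The genes ptgs2 and ptx3 were followed in cultured tail fibroblasts of the African turquoise killifish, Nothobranchius furzeri, that carry mutations in vgll3. They are 2 of the 25099 genes counted, and both were among the 16354 that passed the filter on low counts. Both were chosen because their mean levels in these same cultures were lower in vgll3 mutants than in wild type. The file names both by symbol without a gene number, so which copy of a duplicated gene the counts belong to is uncertain. Because the genes were chosen this way, the genotype differences given for them are descriptions, with fold changes and standard errors (SE) but no test.

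The gene ptgs2 encodes prostaglandin-endoperoxide synthase 2 (cyclooxygenase 2), the inducible enzyme that turns arachidonic acid into the common precursor of the prostaglandins. The gene ptx3 encodes pentraxin 3, a secreted pattern-recognition protein that, in mammals, binds complement components and helps to build the hyaluronan-rich matrix around cells. In mammalian fibroblasts both genes are known targets of inflammatory cytokines acting through NF-kappaB, and AU-rich elements limit the stability of ptgs2 mRNA. Vgll3 is a vestigial-like cofactor of the TEAD transcription factors.

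Fish were homozygous for a mutation in exon 3 of vgll3, homozygous for a mutation in exon 1, or wild type (WT), and the labels name no treatment. There were 3 exon 3 mutant cultures (1, 3 and 4), 3 exon 1 mutant cultures (3, 4 and 6) and 4 WT cultures (F1, F9, F4 and FM), in 18 libraries of polyadenylated RNA. Names ending in A and B mark technical replicates of 1 culture, whereas F1 and F9 carry no such letter and were kept as separate cultures. The labels give no sequence change, age or sex of the fish, and leave unsaid whether each culture was grown from a different fish, so the spread between cultures may be technical. The library names call the exon 1 mutant KD and the exon 3 mutant null.

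A library held between 15236208 and 28146560 counts, and the ranges of the 3 genotypes overlapped. The mutated gene itself, vgll3, averaged 107 ± 10.3 CPM (counts per 1000000 of the scaled library total) in exon 3 cultures, 245 ± 33.6 CPM in exon 1 cultures and 306 ± 30.4 CPM in WT (SD, n = 3, 3 and 4). It passed the edgeR test in the exon 3 mutant against WT (log2 fold change -1.51, adjusted p = 0.00294) and not in the exon 1 mutant (-0.32, adjusted p = 0.565). Some labelled technical partners were unlike each other. Libraries A and B differed by over 2-fold in 24.0% of the genes tested in exon 1 culture 3, in 8.55% in WT F4 and in 9.2% in WT FM, against 3.27% to 5.40% in the other 5 cultures. Values of ptgs2 and ptx3 in these cultures are therefore also given by library, whereas all other genes are given with the libraries summed.

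The cells carried the fibroblast markers that the label implies, with exceptions. Of 16 fibroblast marker genes, 13 reached 1 CPM in at least 1 culture, and their sum lay between 7480 and 16040 CPM in exon 3 cultures, 7298 and 14394 CPM in exon 1 cultures, and 8076 and 9868 CPM in WT. Collagen I genes, dcn, lum, pdgfra and prrx1 were high in every culture. The intermediate filament gene vim stayed at or below 0.603 CPM in every culture, and both copies of postn at or below 0.241 CPM. Leukocytes also make these inflammatory products, and 6 of 15 leukocyte marker genes reached 1 CPM in at least 1 culture. The pan-leukocyte gene ptprc did not exceed 0.218 CPM, and spi1a, spi1b, mpx and mpeg1.1 did not exceed 0.156 CPM in any culture. The macrophage gene csf1ra ran at 1.82 to 2.72 CPM in exon 3 cultures, 0.904 to 1.65 CPM in exon 1 cultures and 0.496 to 1.68 CPM in WT, and the lysozyme gene lyz at 1.08 to 1.75 CPM, 1.05 to 2.89 CPM and 0 to 0.416 CPM in the same order. The actin-bundling gene lcp1 reached 0.633 CPM in exon 3 cultures, 2.09 CPM in exon 1 cultures and 3.39 CPM in WT. In the same order, the highest values of cd68 were 1.99, 0.879 and 0.496 CPM, and those of coro1a 1.10, 1.02 and 1.75 CPM. The leukocyte list summed to 57.4 to 73.6 CPM in exon 3 cultures and 43.2 to 59.8 CPM in exon 1 cultures. In WT it summed to 23.9 to 49.0 CPM. Most of each sum was aif1l, at 49.9 to 66.4, 38.4 to 53.3 and 22.0 to 40.9 CPM in the same order. This gene was matched to the list symbol aif1 by its name alone, so the sum was not taken as a measure of leukocytes.

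ptgs2 was low in all 6 mutant cultures and spread widely among the WT cultures. It had 41.9, 32.5 and 30.8 CPM in exon 3 mutant cultures 1, 3 and 4, and 39.3, 32.6 and 38.1 CPM in exon 1 mutant cultures 3, 4 and 6. In WT it had 73.8 CPM in F1, 41.7 CPM in F9, 88.6 CPM in F4 and 87.0 CPM in FM. The 3 WT cultures F1, F4 and FM lay well above every mutant culture, whereas WT F9 lay just below exon 3 culture 1. The exon 3 cultures therefore overlapped the WT range through a single pair of cultures, and the exon 1 cultures did not overlap it.

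The mean level of ptgs2 was 35.1 ± 6.00 CPM over exon 3 cultures, 36.7 ± 3.57 CPM over exon 1 cultures and 72.8 ± 21.7 CPM in WT (SD, n = 3, 3 and 4). Against WT, the log2 fold change was -1.05 ± 0.24 (SE) in the exon 3 mutant, which is 48.2% of the WT level. The exon 1 mutant stood at 50.4% of the WT level, with a log2 fold change of -0.99 ± 0.24 (SE). Both values are set against the same 4 WT cultures. Lower levels without overlap of cultures, as ptgs2 showed in the exon 1 mutant, were found in 4.37% of all genes tested in that comparison, and nothing is read from this for a gene chosen on it.

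Set against each other, the mutants had nearly the same ptgs2 level. The exon 3 mutant differed from the exon 1 mutant by a log2 fold change of -0.07 ± 0.25 (SE). Ordered by level, the exon 3 and exon 1 mutants are neighbours that did not differ beyond their spread. The next neighbours, the exon 1 mutant and WT, were apart by culture but overlapped by library. In bulk RNA such as this, fewer cells of a type and less RNA per cell cannot be told apart.

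The ptgs2 difference was larger without the WT culture F9. The log2 fold change was then -1.25 in the exon 3 mutant and -1.18 in the exon 1 mutant. Without F9 edgeR called ptgs2 in both, among 24 and 34 genes called, and nothing is read from this. When WT consisted of F1 and F9 alone, the value was -0.72 in the exon 3 mutant and -0.66 in the exon 1 mutant. The edgeR quasi-likelihood test over all genes, run here to give the background, called 0.238% of genes in the exon 3 mutant against WT and 0.159% in the exon 1 mutant against WT. With all 10 cultures it called neither ptgs2 nor ptx3 in either comparison, nor in the exon 3 mutant against the exon 1 mutant, where it called 0.0122% of genes. DESeq2, which called 3.1% of genes in the exon 3 mutant and 1.55% in the exon 1 mutant against WT, called ptgs2 in both and ptx3 in the exon 3 mutant alone, and nothing is read from these calls.

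**Figure D1:**
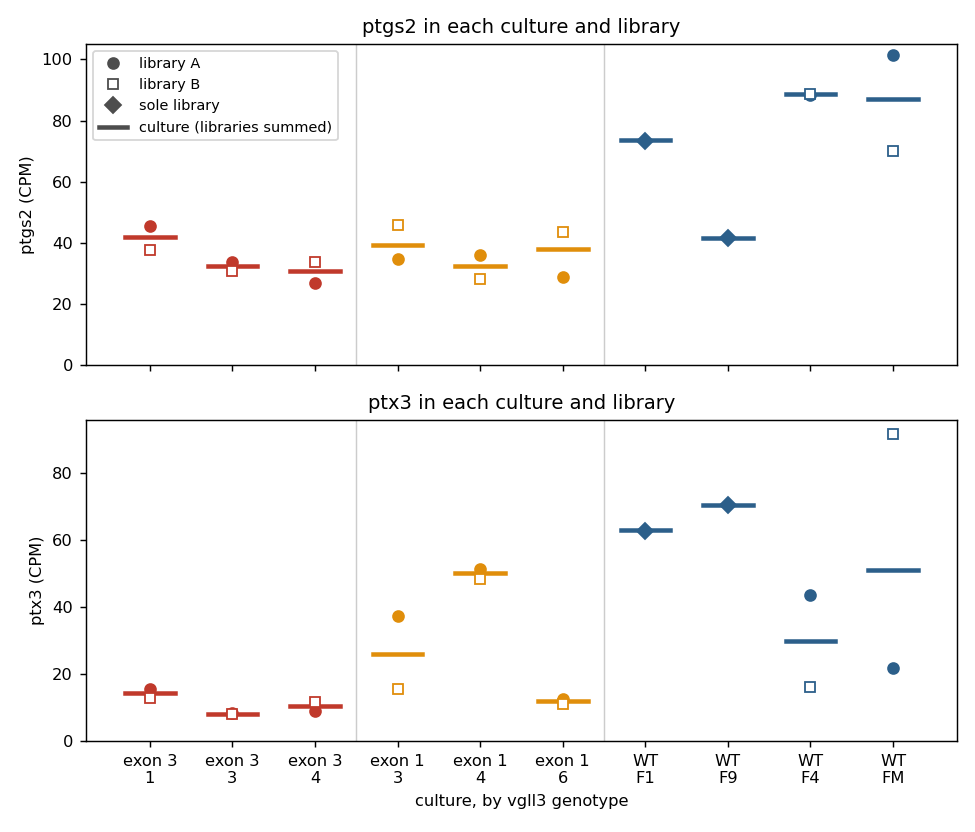
Level of ptgs2 (top) and ptx3 (bottom) in CPM on a linear axis from 0, for the 3 exon 3 mutant, 3 exon 1 mutant and 4 WT cultures. Bars give each culture with its libraries summed, filled circles library A, open squares library B and diamonds the sole library of F1 and F9; ptgs2 reaches 41.9 CPM at most in the mutant cultures, and ptx3 lies below 16 CPM in all exon 3 mutant libraries but spreads widely within exon 1 and WT.

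ptx3 had its lowest mean level in the exon 3 mutant, and relative to its level it spread most between the exon 1 cultures. It had 14.4, 8.30 and 10.6 CPM in exon 3 mutant cultures 1, 3 and 4, and 25.9, 50.3 and 11.9 CPM in exon 1 mutant cultures 3, 4 and 6. In WT it had 63.0 CPM in F1, 70.5 CPM in F9, 29.9 CPM in F4 and 51.2 CPM in FM. All exon 3 cultures lay below every WT culture. Exon 1 culture 6 lay inside the exon 3 range, exon 1 culture 4 lay inside the WT range, and exon 1 culture 3 lay between both ranges.

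The mean level of ptx3 was 11.1 ± 3.06 CPM over exon 3 cultures, 29.4 ± 19.4 CPM over exon 1 cultures and 53.7 ± 17.8 CPM in WT (SD, n = 3, 3 and 4). The exon 3 mutant stood at 20.7% of the WT level, with a log2 fold change of -2.27 ± 0.46 (SE). Lower levels without overlap of cultures were found in 6.87% of all genes tested in this comparison, and nothing is read from this for a gene chosen on it. The exon 1 mutant stood at 54.9% of the WT level, with a log2 fold change of -0.87 ± 0.44 (SE) and overlapping cultures.

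The exon 3 mutant stood at 37.7% of the exon 1 mutant in ptx3, a log2 fold change of -1.41 ± 0.47 (SE), again with overlapping cultures. Ordered by level, the exon 3 mutant, the exon 1 mutant and WT followed each other, and neither pair of neighbours was separate beyond its spread. The value for the exon 1 mutant rests on single cultures. Without culture 4 its log2 fold change against WT was -1.50, and without culture 6 it was -0.49. The exon 3 mutant against the exon 1 mutant moved likewise, to -0.77 without exon 1 culture 4 and to -1.78 without exon 1 culture 6.

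Technical partners agreed better for ptgs2 than for ptx3 in the cultures whose libraries were unlike. In ptgs2, WT F4A and F4B had 88.4 and 88.6 CPM, and FMA and FMB had 101 and 70.0 CPM. Exon 1 libraries 3A and 3B had 34.7 and 45.8 CPM of ptgs2, so that 3B lay above WT F9 at 41.7 CPM. In ptx3, F4A had 43.6 CPM and F4B 16.2 CPM, a ratio of 2.69 (95% interval 2.35 to 3.09, exact binomial). FMB had 91.8 CPM of ptx3 and FMA 22.0 CPM, which is 4.17-fold apart.

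In exon 1 culture 3, ptx3 was 2.39-fold higher in library A (37.4 CPM) than in library B (15.7 CPM), with a 95% interval of 2.08 to 2.74. These intervals rest on the counts of each library pair and describe counting error alone. The reads carry no molecular identifiers to mark repeated copies of a molecule, so the intervals may be too narrow. Exon 1 cultures 4 and 6 had partner values of 51.5 and 48.5 CPM, and of 12.6 and 11.1 CPM, so the spread of ptx3 between these cultures was larger than that between their libraries. The interval of the ratio excluded 1 in 6 of 8 pairs for ptgs2 and in 5 of 8 pairs for ptx3.

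At the level of libraries, ptx3 in the exon 3 mutant ran from 8.03 to 15.5 CPM over 6 libraries, exon 1 from 11.1 to 51.5 CPM over 6 and WT from 16.2 to 91.8 CPM over 6. The exon 3 mutant thus still lay below WT in 6 of 6 libraries, by a narrow margin set by F4B. Lower levels without overlap of libraries were found in 1.87% of all genes tested, and nothing is read from this either. For ptgs2, 5 of 6 exon 3 libraries and 4 of 6 exon 1 libraries lay below the lowest WT library, F9.

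Within genotypes, no common movement of ptgs2 and ptx3 could be detected. WT F9 had the lowest ptgs2 and the highest ptx3 of the WT cultures, and WT F4 the highest ptgs2 and the lowest ptx3. F4 and FM were close in ptgs2, at 88.6 and 87.0 CPM, and their ptx3 values sum unlike libraries. The relation was not computed with the WT libraries regrouped. Exon 1 culture 4, likewise, had the lowest ptgs2 and the highest ptx3 of its genotype. Exon 3 culture 1 was highest of its genotype in both genes.

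The deviations of log2 CPM from the genotype means, which the choice of the genes did not use, had a Pearson r of -0.37 over the 10 cultures (exact permutation of the cultures within genotypes, two-sided p = 0.253) and a Spearman rho of -0.31 (exact permutation p = 0.391). Leaving out WT F9 and WT F4, the 2 cultures farthest from the median of ptgs2, gave an r of -0.16 (exact permutation p = 0.722). This was the only relation tested. Between technical partners, the ratios of ptgs2 and ptx3 lay on opposite sides of 1 in 4 of 8 pairs. One of these was WT F4, where ptgs2 hardly differed, at 88.4 and 88.6 CPM.

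**Figure D2:**
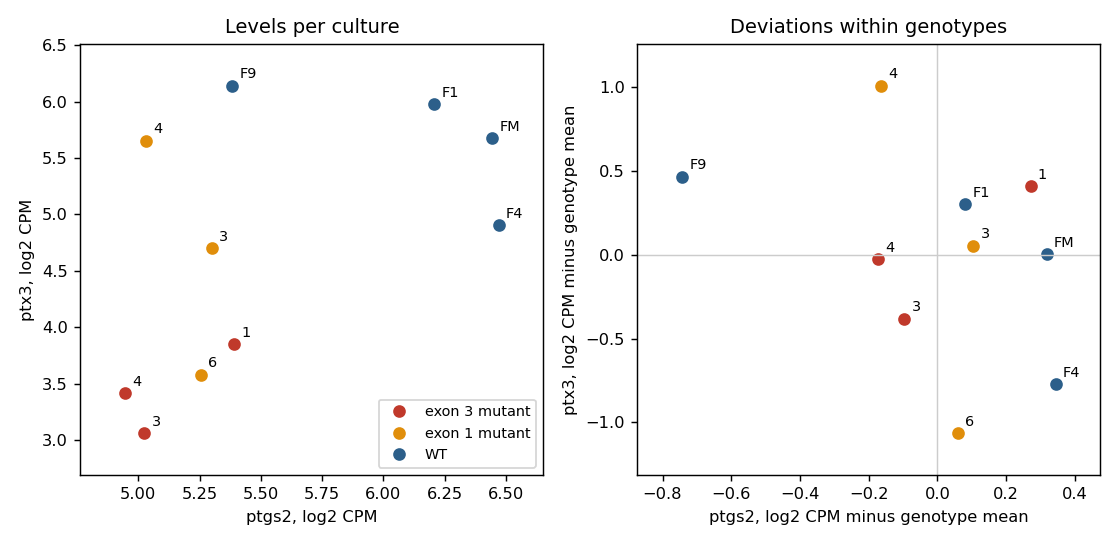
Log2 CPM of ptx3 against that of ptgs2 in the 10 cultures (left) and the same values after the genotype mean was taken away (right), coloured by genotype and labelled by culture. On the right WT F9 sits at the upper left and WT F4 at the lower right, and the exact permutation test of the relation gave p = 0.253.

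Around ptgs2, none of the genes of prostaglandin synthesis passed the edgeR test, and neither did ptgs2. Because ptgs2 was chosen for its low level in the mutants, nothing is read from their smaller differences from WT. Of 14 synthesis genes tested besides ptgs2, edgeR called 0 in any comparison. In the exon 3 mutant against WT, 9 of the 14 lay below 0 (64.3%, against 48.5% of all genes), and their median log2 fold change was -0.10, against 0.01 over all genes. In the exon 1 mutant against WT, 9 of 14 also lay below 0, with a median of -0.14 against 0.02 over all genes. At an unadjusted p under 0.05, 1 was lower and 0 were higher in the exon 3 mutant (all genes: 5.26% lower and 7.07% higher), and 1 was lower and 1 higher in the exon 1 mutant (all genes: 4.31% and 4.17%).

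Upstream of ptgs2, pla2g4a encodes the cytosolic phospholipase A2 that frees arachidonic acid from membranes. Its log2 fold change was -0.10 ± 0.10 (SE) in the exon 3 mutant and -0.29 ± 0.10 in the exon 1 mutant. The calcium-independent phospholipase gene pla2g6 had -0.38 ± 0.11 in the exon 3 mutant and -0.21 ± 0.11 in the exon 1 mutant. Its 3 exon 3 cultures lay below all 4 WT cultures, at 16.9 ± 1.81 CPM against 22.0 ± 1.83 CPM. Its exon 1 cultures also lay below WT, as did both mutants in pla2g4a. Such separation was found in 6.87% of all genes tested in the exon 3 mutant and 4.37% in the exon 1 mutant.

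Downstream, the prostaglandin E synthase genes showed small differences against wide errors. The inducible ptges had a log2 fold change of -0.10 ± 0.30 (SE) in the exon 3 mutant and -0.50 ± 0.30 in the exon 1 mutant. For ptges2 the values were -0.32 ± 0.18 in the exon 3 mutant and -0.37 ± 0.18 in the exon 1 mutant. In the same order, ptges3 had -0.16 ± 0.16 and -0.25 ± 0.16, and the like-named ptges3a (LOC107390842) had -0.32 ± 0.18 and -0.14 ± 0.18. The prostacyclin synthase gene ptgis had -0.15 ± 0.21 in the exon 3 mutant and -0.22 ± 0.21 in the exon 1 mutant.

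The prostaglandin D synthase gene ptgdsb.1 (LOC107382981) varied widely between cultures, most of all in the exon 3 mutant, and all 3 groups overlapped. It had 1836, 104 and 465 CPM in exon 3 cultures 1, 3 and 4 and 2616, 2242 and 1095 CPM in exon 1 cultures 3, 4 and 6. In WT F1, F9, F4 and FM it had 2164, 703, 1480 and 605 CPM. Exon 3 culture 3 was the lowest of all 10 cultures. The gene of the constitutive cyclooxygenase, ptgs1, had 0 counts in all 18 libraries, which allows a level of up to 0.00783 CPM over the pooled libraries (3 counts, counting error only).

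Transport, breakdown and receptor genes of the prostaglandins also gave no call. Of 9 tested, edgeR called 0 in each comparison. At an unadjusted p under 0.05, 1 was lower and 0 higher in the exon 3 mutant against WT, beside 5.26% and 7.07% of all genes. In the exon 1 mutant 0 were lower and 1 higher, beside 4.31% and 4.17%. Their median log2 fold change was -0.11 in the exon 3 mutant and -0.04 in the exon 1 mutant, with 0.01 and 0.02 over all genes. The export pump gene abcc4 had -0.11 ± 0.18 (SE) in the exon 3 mutant and -0.04 ± 0.17 in the exon 1 mutant, and the uptake transporter gene slco2a1 had 0.32 ± 0.20 and 0.10 ± 0.20 in the same order.

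Among the receptors for prostaglandin E2, ptger2a (LOC107381029) had 11.4 ± 4.08 CPM in exon 3 cultures, 6.49 ± 1.74 CPM in exon 1 cultures and 10.2 ± 4.10 CPM in WT (SD, n = 3, 3 and 4). All 3 groups overlapped. The prostacyclin receptor gene ptgir was low throughout, at 0.509 ± 0.081 CPM in exon 3 cultures, 0.530 ± 0.352 CPM in exon 1 cultures and 0.964 ± 0.291 CPM in WT. Its exon 3 cultures lay below WT without overlap, which held for 6.87% of all genes tested. The prostaglandin-degrading dehydrogenase gene hpgd had 0 counts in all libraries, ptger3 15, ptger4a 7 and ptgfr 1, so these 4 were not tested.

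Of the lipoxygenase and leukotriene genes, the other branch of arachidonic acid use, 7 were tested. edgeR called 0 in each comparison, and at an unadjusted p under 0.05 there were also 0. Their median log2 fold change against WT was -0.07 in the exon 3 mutant and 0.09 in the exon 1 mutant, with 0.01 and 0.02 over all genes.

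Around ptx3, the matrix partner tnfaip6 had the widest difference of its list in the exon 3 mutant against WT. Its product moves heavy chains of inter-alpha-inhibitor, to which pentraxin 3 binds in mammals, onto hyaluronan. It had 49.4, 15.7 and 26.2 CPM in exon 3 cultures 1, 3 and 4 and 64.6, 25.2 and 63.9 CPM in exon 1 cultures 3, 4 and 6. In WT F1, F9, F4 and FM it had 229, 44.6, 170 and 63.3 CPM. F1 and F4 stood high, whereas F9 and FM lay among the mutant cultures.

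The log2 fold change of tnfaip6 against WT was -2.06 ± 0.63 (SE) in the exon 3 mutant and -1.31 ± 0.61 in the exon 1 mutant, and it did not pass the edgeR test. The inter-alpha-inhibitor gene itih5 had -1.31 ± 0.50 in the exon 3 mutant and -0.11 ± 0.48 in the exon 1 mutant. For the complement gene c4b (LOC107372375), the exon 3 mutant had 58.0 ± 22.6 CPM, the exon 1 mutant 88.0 ± 32.6 CPM and WT 112 ± 10.8 CPM (SD, n = 3, 3 and 4). All 3 exon 3 cultures of c4b lay below WT, which held for 6.87% of all genes tested. The log2 fold change of c4b there was -0.94 ± 0.29 (SE). The central complement gene c3 was near 0, at or below 0.831 CPM in every culture.

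Of 12 pentraxin partners tested besides ptx3, edgeR called 0 in each comparison. In the exon 3 mutant against WT, 6 lay below 0 and 6 above, with a median log2 fold change of -0.14, against 0.01 over all genes. At an unadjusted p under 0.05, 3 were lower (tnfaip6, itih5 and c4b) and 0 higher there, beside 5.26% and 7.07% of all genes. The exon 1 mutant had 1 lower and 0 higher, beside 4.31% and 4.17% of all genes. The neuronal pentraxin genes nptx1 and nptx2 gave too few counts to test, with 0 and 5 counts over all libraries, whereas the neuronal pentraxin receptor gene nptxr was tested and had a log2 fold change of -0.32 ± 0.18 (SE) in the exon 3 mutant and -0.15 ± 0.18 in the exon 1 mutant.

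The NF-kappaB genes, whose products act upstream of both genes in mammals, showed small shifts. Of 25 tested, edgeR called 0 in each comparison. In the exon 3 mutant against WT, 7 were lower and 1 higher at an unadjusted p under 0.05, against 5.26% of all genes lower and 7.07% higher. The median over the list was -0.05, and 15 of 25 lay below 0 (60.0%, against 48.5% of all genes). In the exon 1 mutant 2 were lower and 0 higher, against 4.31% and 4.17% of all genes, with a median of -0.08.

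The largest of these differences was in bcl3 (LOC107379538), a nuclear partner of the p50 and p52 subunits, with 13.7, 11.8 and 11.7 CPM in exon 3 cultures 1, 3 and 4 and 14.2, 17.7 and 12.7 CPM in exon 1 cultures 3, 4 and 6. In WT F1, F9, F4 and FM it had 21.5, 16.9, 20.3 and 18.3 CPM. Every exon 3 culture lay below every WT culture, which held for 6.87% of all genes tested. The log2 fold change of bcl3 was -0.63 ± 0.14 (SE) in the exon 3 mutant and -0.37 ± 0.14 in the exon 1 mutant. The subunit genes nfkb1, nfkb2 and rel had -0.41 ± 0.11, -0.45 ± 0.18 and -0.40 ± 0.14 in the exon 3 mutant. Their exon 3 cultures also lay below all WT cultures.

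Feedback inhibitors and other regulators of NF-kappaB differed among themselves in the exon 3 mutant against WT. Values were -0.37 ± 0.15 (SE) for nfkbia, -0.40 ± 0.15 for tnfaip3, -0.55 ± 0.22 for tnip2 and -0.20 ± 0.15 for nfkbie. They were 0.01 ± 0.12 for tnip1 (LOC107374477) and 0.43 ± 0.17 for nfkbiz (LOC107377248). All exon 3 cultures of nfkbiz lay above WT, at 4.36 CPM or more against at most 3.86 CPM. Those of tnfaip3 lay below WT, at 22.5 CPM or less against at least 23.7 CPM. Lower levels without overlap held for 6.87% of all genes tested, and the share for higher levels is not reported here. The main transactivating subunit rela (LOC107376749) had 66.5 ± 4.45 CPM in exon 3 cultures, 64.8 ± 7.02 CPM in exon 1 cultures and 65.5 ± 12.1 CPM in WT (SD, n = 3, 3 and 4). Its log2 fold change was 0.02 ± 0.15 (SE) in the exon 3 mutant and -0.02 ± 0.15 in the exon 1 mutant, and relb had -0.10 ± 0.20 and -0.31 ± 0.20.

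Among cytokines, the widest difference from WT in both mutants was that of il11a (LOC107379416), which encodes an interleukin 6 family cytokine made by stromal cells. It had 2.93, 0.750 and 1.62 CPM in exon 3 cultures 1, 3 and 4 and 2.86, 0.623 and 2.01 CPM in exon 1 cultures 3, 4 and 6. In WT F1, F9, F4 and FM it had 11.98, 1.65, 13.8 and 9.96 CPM. As for ptgs2, F1, F4 and FM lay above all mutant cultures and F9 lay among them.

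The log2 fold change of il11a was -2.40 ± 0.73 (SE) in the exon 3 mutant and -2.36 ± 0.73 in the exon 1 mutant, and it did not pass the edgeR test in either. Of 20 cytokine, receptor and effector genes tested, edgeR called 0 in each comparison. At an unadjusted p under 0.05, 3 were lower and 1 higher in the exon 3 mutant against WT (all genes: 5.26% and 7.07%), and 4 lower and 0 higher in the exon 1 mutant (all genes: 4.31% and 4.17%). Their medians were -0.11 and -0.29 in the same order, with 0.01 and 0.02 over all genes. The heme oxygenase gene hmox1 had -0.59 ± 0.18 in the exon 3 mutant and 0.06 ± 0.17 in the exon 1 mutant, and the RNA sensor gene tlr3 (LOC107397061) had 1.12 ± 0.32 and 0.20 ± 0.33. All exon 3 cultures lay below WT in hmox1, which held for 6.87% of all genes tested. In tlr3 all exon 3 cultures lay above WT, at 2.66 CPM or more against at most 2.10 CPM. The genes il1b, il6, cxcl8 and fos were not analysed here under these names.

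Among inducible transcription factors, cebpb (LOC107391299), a factor that acts on the ptgs2 promoter in mammals, had 9.51 ± 3.09 CPM in exon 3 cultures, 7.02 ± 1.30 CPM in exon 1 cultures and 16.1 ± 6.99 CPM in WT (SD, n = 3, 3 and 4). Its log2 fold change was -0.75 ± 0.32 (SE) in the exon 3 mutant and -1.19 ± 0.32 in the exon 1 mutant. The immediate early gene egr1 had opposite signs in the mutants, with 0.59 ± 0.29 in the exon 3 mutant and -0.62 ± 0.30 in the exon 1 mutant. All exon 3 cultures of nfatc1 (LOC107394905) lay above WT, at 11.4 CPM or more against at most 9.88 CPM. In nfatc2 they had 1.25, 2.23 and 1.74 CPM, and WT reached 1.31 CPM. In cebpd they lay below WT, at 78.6 CPM or less against at least 79.6 CPM, as did 6.87% of all genes tested. In both genes named jun they overlapped WT. Of 27 tested in this list, edgeR called 0 in each comparison. At an unadjusted p under 0.05, 2 were lower and 3 higher in the exon 3 mutant against WT (all genes: 5.26% and 7.07%), and 4 lower and 0 higher in the exon 1 mutant (all genes: 4.31% and 4.17%). Their medians were 0.15 and -0.09, with 0.01 and 0.02 over all genes.

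Proteins that bind AU-rich elements control how long mRNAs such as that of ptgs2 last in mammals. Of 8 such genes tested, edgeR called 0, and 0 had an unadjusted p under 0.05 in any comparison. The decay-promoting zfp36l1 had log2 fold changes of 0.32 ± 0.25 (SE) in the exon 3 mutant and 0.08 ± 0.25 in the exon 1 mutant, and khsrp had -0.08 ± 0.09 and -0.06 ± 0.09.

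Over all 122 list genes tested besides ptgs2 and ptx3, edgeR called 0 in each of the 3 comparisons, and the smallest adjusted p were 0.111 in the exon 3 mutant against WT, 0.219 in the exon 1 mutant against WT and 0.267 in the exon 3 mutant against the exon 1 mutant. At an unadjusted p under 0.05, 17 were lower and 5 higher in the exon 3 mutant against WT, 12 lower and 2 higher in the exon 1 mutant against WT, and 4 lower and 9 higher in the exon 3 mutant against the exon 1 mutant. The shares of all genes were 5.26% lower and 7.07% higher in the first comparison, 4.31% and 4.17% in the second, and 3.18% and 5.3% in the last.

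DESeq2 called 4 of the 122 in the exon 3 mutant against WT, all lower (nfkb1, pla2g6, il11a and bcl3), against 3.1% of all genes. It called 4 in the exon 1 mutant against WT, all lower (il11a, cebpb, tnfb and has1), against 1.55% of all genes. In the exon 3 mutant against the exon 1 mutant it called 3 (egr1 and has1 higher, ptgr1 lower), against 1.07% of all genes. The genes tnfb, has1, ptgr1, nptxr, nfkbie, nfkbiz, tnip1 and tnip2 are named here after their values were seen.

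**Figure D3:**
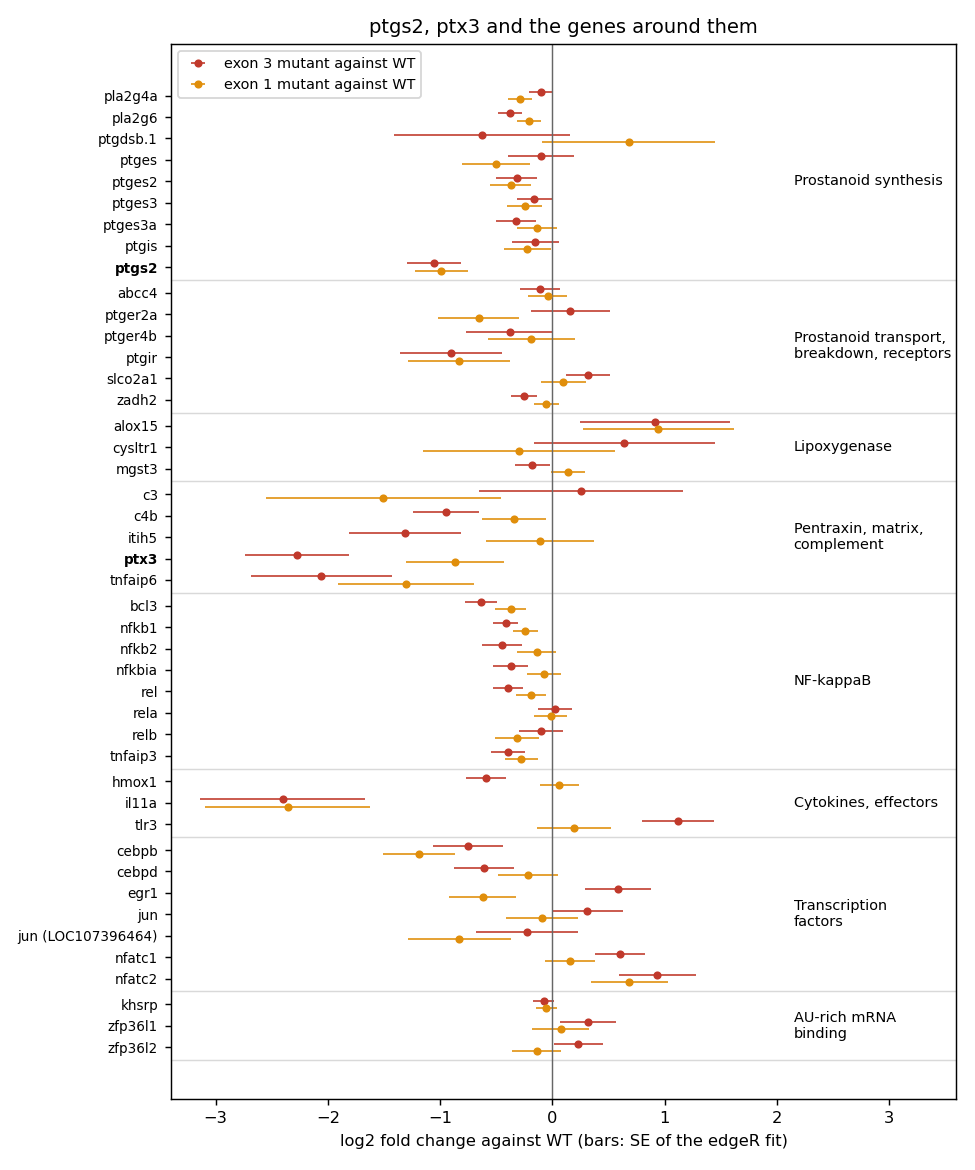
Log2 fold change against WT (horizontal axis, bars are the SE of the edgeR fit) of ptgs2, ptx3 (bold) and the named list genes, for the exon 3 mutant (red) and the exon 1 mutant (orange), grouped by role. The points of ptgs2 lie at -1.05 and -0.99 and that of ptx3 at -2.27 in the exon 3 mutant, and il11a and tnfaip6 are the other genes below -2 in the exon 3 mutant.

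The genes whose pattern over the 10 cultures was most like that of ptgs2 or of ptx3 were picked by Pearson correlation of log2 CPM among 9728 named genes with a mean of at least 5 CPM. For ptgs2 they included slco5a1, an organic anion transporter family member (r = 0.96), igfbp5b (LOC107395865), a binding protein of insulin-like growth factors (0.93), ntn4, a secreted netrin (0.91), and slc4a7 (LOC107379035), a bicarbonate cotransporter (0.90). All values come from the same 10 cultures, share the genotype differences and were ranked to be high, so they are descriptions over 10 points.

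The low WT culture F9 recurred in these genes, which their choice by likeness to ptgs2 favours. igfbp5b had 39.0, 35.7 and 37.2 CPM in exon 3 cultures 1, 3 and 4, and 47.9, 19.1 and 28.7 CPM in exon 1 cultures 3, 4 and 6. In WT F1, F9, F4 and FM it had 133, 50.1, 157 and 115 CPM. ntn4 ran from 91.0 to 103 CPM in exon 3 cultures and from 59.9 to 127 CPM in exon 1 cultures, and stood at 359, 124, 344 and 237 CPM in WT F1, F9, F4 and FM.

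For ptx3 the most alike genes were nuak2, an AMPK-related kinase (r = 0.95), mars2, the mitochondrial methionyl-tRNA synthetase (0.95), garnl3 (0.93), thbs2, a matricellular thrombospondin (0.93), and polr3g, an RNA polymerase III subunit (0.92). thbs2 had 117, 27.9 and 65.4 CPM in exon 3 cultures 1, 3 and 4, and 334, 311 and 73.8 CPM in exon 1 cultures 3, 4 and 6. In WT F1, F9, F4 and FM it had 369, 405, 226 and 273 CPM. As for ptx3, by which the gene was chosen, exon 1 culture 6 lay in the exon 3 range and F9 was the highest WT culture.

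The pair itself had an r of 0.53 over the 10 cultures, a value that includes the genotype differences. Many genes were closer by this measure, since ptx3 ranked 901 of 9728 for ptgs2, and ptgs2 ranked 1263 for ptx3.

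**Figure D4:**
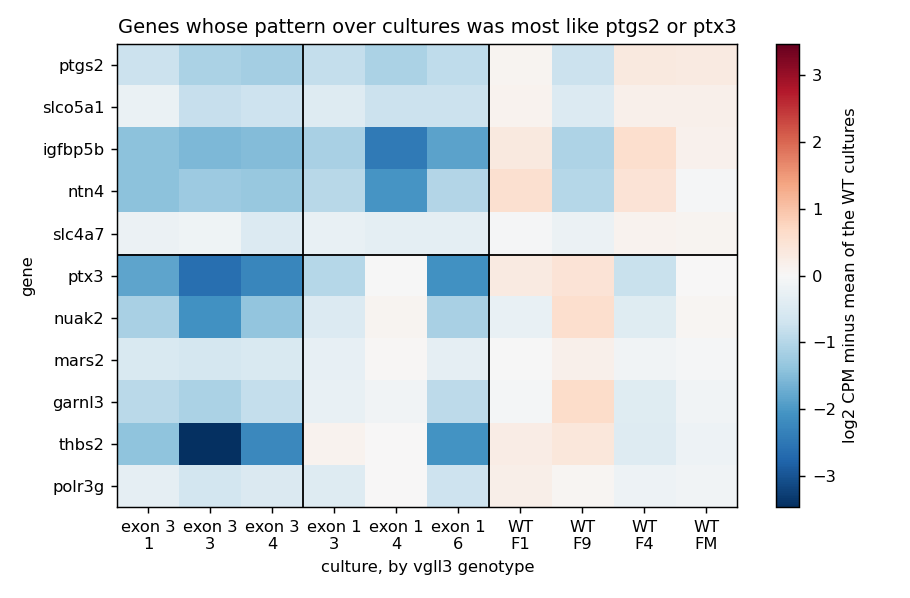
Log2 CPM minus the mean of the WT cultures (colour, red above and blue below WT) for ptgs2, ptx3 and the named genes most like each, in the 10 cultures by genotype. The ptgs2 block is blue in WT F9 as in the mutants, whereas the ptx3 block is red or pale in WT F9 and in exon 1 culture 4 and blue in exon 1 culture 6. The genes of each block were chosen for this likeness.

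Markers of other cell types moved with genotype in some cases. The endothelial list (9 genes) summed to 127 to 206 CPM in exon 3 cultures, 152 to 232 CPM in exon 1 cultures and 280 to 432 CPM in WT, with kdrl as its largest member. kdrl itself ran at 80.5 to 148 CPM in exon 3 cultures, 116 to 180 CPM in exon 1 cultures and 243 to 382 CPM in WT. It was thus lower in all 6 mutant cultures than in WT, as ptgs2 was in most. Lower levels without overlap were found in 6.87% of all genes tested in the exon 3 mutant and 4.37% in the exon 1 mutant. Of the other endothelial genes, pecam1a, tie1, kdr and flt1 stayed at or below 0.888 CPM and pecam1b reached 1.14 CPM. The gene egfl7 ran from 2.19 to 10.1 CPM and fli1 from 16.8 to 34.3 CPM over all cultures, and cdh5 ran from 11.6 to 20.4 CPM in exon 3 cultures, 6.49 to 25.5 CPM in exon 1 cultures and 11.9 to 21.4 CPM in WT. The keratinocyte list (11 genes) summed to 9397 to 15562 CPM in exon 3 cultures, 10861 to 11828 CPM in exon 1 cultures and 7870 to 8595 CPM in WT, mostly the simple-epithelium keratins krt8 and krt18a.1, while krt5 and cdh1 stayed at or below 0.610 CPM. The desmosome gene dsp had 172 to 316 CPM in exon 3 cultures, 122 to 207 CPM in exon 1 cultures and 116 to 147 CPM in WT. The junction gene perp ran from 262 to 364 CPM, tp63 from 1.79 to 4.01 CPM and epcam from 0.653 to 3.78 CPM over all cultures.

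The bone-forming list (10 genes) summed to 1865 to 9701 CPM in exon 3 cultures, 1081 to 2872 CPM in exon 1 cultures and 615 to 1953 CPM in WT. The highest value came from exon 3 culture 3, where ptx3 was lowest. Without that culture the log2 fold change of ptx3 in the exon 3 mutant against WT was -2.11, and that of ptgs2 was -1.01. The pigment list (12 genes) summed to 19.8 to 133 CPM in exon 3 cultures, 15.7 to 19.8 CPM in exon 1 cultures and 21.6 to 25.6 CPM in WT, and the muscle list (8 genes) did not exceed 4.98 CPM. The part of these cell types in the levels of ptgs2 and ptx3 was not tested.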

How the data were processed

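For each of 18 libraries the authors deposited whole-number counts over 25099 genes, with no normalization. Per the submitters' processing notes, the tools were STAR 2.7.6a, cutadapt 3.4, Trim Galore 0.6.4, FastQC 0.11.8 and edgeR 3.32.1. The build, annotation and strand setting are not given in the sources, so counts of near-identical copies or overlapping genes are uncertain. LOC numbers were named from RefSeq's NfurGRZ-RIMD1 table where it has a symbol (5241 of 14280).

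Libraries A and B of a culture were added up. After filterByExpr 16354 genes remained, and counts were scaled with TMM factors and fitted with edgeR's quasi-likelihood test (edgeR 4.0.16, limma 3.58.1, R 4.3.3) in 1 model of the 3 genotypes, with Benjamini-Hochberg adjustment over all genes and a threshold of 0.05. The common coefficient of variation was 0.248, and the fit was tested on simulated data. Fold changes use a prior count of 0.125, and each SE is the absolute fold change over the root of F. CPM are counts per 1000000 of the TMM-adjusted total, scaled separately for cultures and libraries.

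ptgs2, ptx3, the lists (160 genes matched for 198 symbols) and the markers were chosen with earlier results of these data known. Named list genes were any called, a set of key genes whatever their result, and up to 3 per list with the smallest p in the exon 3 mutant against WT; the 5 genes most like each of ptgs2 and ptx3 were added, except 1 that is not reported here. Alternatives were DESeq2 1.42.0, upper-quartile factors, no filter, libraries as separate samples, other WT groupings, 2 genotypes only, and leaving out single cultures.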

Additional observations from a re-analysis of the deposited data

Results flagged for a closer look

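Of 44 named genes looked at for a WT culture far from the others, 1 stood out. The prostaglandin E2 receptor gene ptger4b (LOC107374924) had 3.35 CPM in WT F1, against 1.44, 1.62 and 1.73 CPM in the other WT cultures, and the gap took 0.847 of the range. Chance singles out about 5% of such groups.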

How the results depend on the processing

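The log2 fold changes of ptgs2 and ptx3 against WT kept their sign in all 19 alternatives of each comparison. Because both genes were chosen for lower levels in these cultures, nothing is read from the kept sign. Leaving out cultures of the other mutant hardly moved the fold changes. Between -1.25 and -0.72 was found for ptgs2 in exon 3 cultures against WT, and between -1.18 and -0.66 in exon 1 cultures. For ptx3 the limits were -2.59 and -2.11 in exon 3 cultures, and -1.50 and -0.49 in exon 1 cultures. Between the mutants ptgs2 ran from -0.22 to 0.019 when single cultures were left out, and changed sign without exon 3 replicate 4. ptgs2 was called in both comparisons with WT by DESeq2, with the 18 libraries as separate samples and without WT F9. For ptx3 a call came in exon 3 cultures against WT by DESeq2, with the 18 libraries and without exon 1 culture 6. Technical replicates counted as samples make p-values too small. Nothing is read from any of these calls, because both genes were chosen on these same contrasts.

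The counts of genes called, 39 (exon 3 mutant against WT), 26 (exon 1 mutant against WT) and 2 (exon 3 mutant against exon 1 mutant), moved as follows. In the exon 3 mutant against WT the count was 507 by DESeq2, 567 with 18 libraries, 12 with F1 and F9 summed, 17 with 2 genotypes only, 6 with WT libraries regrouped (F1 with F9, F4A with FMB, F4B with FMA, as earlier results of these data proposed) and 15 with WT as F1 and F9 alone, and leaving out single cultures gave 7 to 38: 7 without exon 3 culture 1, F1 or FM, 10 without F4, 15 without exon 1 culture 4, 18 without exon 3 culture 4, 24 without F9 and 25 without exon 1 culture 3. In the exon 1 mutant against WT it was 253 by DESeq2, 342 with 18 libraries, 6 with WT libraries regrouped and 14 with F1 and F9 alone, and leaving out single cultures gave 5 to 56: 5 without exon 1 culture 3 or 4, 9 without exon 1 culture 6 or FM, 10 without F4, 12 without F1, 16 without exon 3 culture 1 and 56 without exon 3 culture 3. Between the mutants it was 174 by DESeq2, 278 with 18 libraries, 1 with 2 genotypes only and 6 without exon 1 library 3A, and leaving out single cultures gave 1 to 8: 1 without exon 1 culture 3 or 4, 4 without exon 3 culture 3 or F9 and 8 without exon 1 culture 6. The causes were not tested.

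Exon 3 and exon 1 cultures share the numbers 3 and 4, with correlations of their deviations of 0.25 and -0.16. Cultures with unlike numbers gave -0.25 to 0.22. With 3 cultures a genotype, these values cannot decide whether the numbers pair the cultures. With a replicate block on these numbers, fitted to cultures 3 and 4 of each mutant alone, 0 genes were called between the mutants. The log2 fold changes were then -0.18 for ptgs2 and -1.95 for ptx3. The other cultures were left out of this fit, so the effect of the block cannot be told apart from theirs. With so few cultures, nothing is read from the 0 calls. With 3 or 4 cultures a genotype, the SE of about 0.24 for ptgs2 and 0.46 for ptx3 limits which differences could be seen.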
